A study of Mus musculus with 4 samples.

Results

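The 34 genes described here encode the enzymes of cholesterol synthesis from acetoacetyl-CoA onwards, the regulators that switch this pathway, and proteins that move, store or export sterol. They were taken by gene name from 4 Agilent arrays, with the probe of highest mean processed signal standing for each gene, out of 29675 genes on the array. The arrays hold RNA of Swiss 3T3 cells, a mouse fibroblast line, cultured with wild-type bone marrow-derived mast cells and labelled 0 h or 24 h of coculture. WT cells are labelled Lpar1+/+ and KO cells Lpar1-/-. The product of Lpar1 is a cell-surface receptor for the bioactive lipid lysophosphatidic acid. The KO line is 1 single-cell clone made with CRISPR/Cas9 and a guide next to exon 3, so a difference between genotypes and a difference between cell clones cannot be told apart. Per the protocols the mast cells had been grown from bone marrow with 10 ng/ml of IL-3, and the coculture held 100 ng/ml of SCF; both are mast cell growth factors. Each array carried RNA pooled from 3 samples, and each of the 4 groups (WT 0 h, KO 0 h, WT 24 h, KO 24 h) has 1 array. Replicate spread could not be measured, and no test was made. Per the protocols, cells were separated after coculture by trypsin and reseeding, or fibroblasts were purified with CD117 beads; which was used for these arrays is not said. The labels do not say how the 0 h samples were composed.

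Cells make cholesterol from acetyl units through mevalonate and squalene. The membrane-bound transcription factor SREBP2 is held in the endoplasmic reticulum by SCAP and INSIG proteins while sterol is plentiful, and when sterol falls it is cut free and turns on nearly every enzyme of the pathway. LXR receptors respond in the opposite situation: they are activated by oxidised sterols and turn on genes that export cholesterol and limit its uptake. Fibroblasts use both arms to keep the cholesterol of their membranes steady.

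Promoter sequence is shown for 5 of the enzymes as description only, and a link between these sequences and the array signals was not tested. The sequences are from RefSeq, build GRCm38.p6, and each is the 180 bases before the annotated start, written 5′ to 3′ in the direction of the gene. Capitals mark TCACNCCAC, the core of the sterol response element that SREBP binds, and CCAAT, the box bound by its partner NF-Y (ATTGG when it lies on the other strand). Hmgcs1 lies on the plus strand at chr13:119690171-119690350, Mvk on the plus strand at chr5:114444089-114444268, and Mvd on the minus strand at chr8:122443423-122443602. Msmo1 lies on the minus strand at chr8:64733579-64733758 and Nsdhl on the plus strand at chrX:72918341-72918520.
Hmgcs1: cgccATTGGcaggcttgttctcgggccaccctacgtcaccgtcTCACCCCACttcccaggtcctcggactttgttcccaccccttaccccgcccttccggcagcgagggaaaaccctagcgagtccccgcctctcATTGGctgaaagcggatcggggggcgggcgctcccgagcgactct
Mvk: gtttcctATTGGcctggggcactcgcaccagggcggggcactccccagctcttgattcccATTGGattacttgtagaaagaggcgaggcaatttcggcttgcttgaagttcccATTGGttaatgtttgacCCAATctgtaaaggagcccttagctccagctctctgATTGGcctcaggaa
Mvd: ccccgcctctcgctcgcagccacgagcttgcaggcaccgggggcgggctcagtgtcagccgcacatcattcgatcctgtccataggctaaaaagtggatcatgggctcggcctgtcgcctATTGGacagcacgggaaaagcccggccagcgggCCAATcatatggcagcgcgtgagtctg
Msmo1: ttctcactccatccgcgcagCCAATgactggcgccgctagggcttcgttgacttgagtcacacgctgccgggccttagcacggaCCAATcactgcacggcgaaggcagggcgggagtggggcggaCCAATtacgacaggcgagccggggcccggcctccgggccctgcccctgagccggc
Nsdhl: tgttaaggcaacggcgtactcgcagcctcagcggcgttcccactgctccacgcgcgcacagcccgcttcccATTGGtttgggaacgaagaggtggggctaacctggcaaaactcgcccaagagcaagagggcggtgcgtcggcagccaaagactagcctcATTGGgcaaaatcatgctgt

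Hmgcs1 was the only member with TCACNCCAC in its window, which runs from 250 bases before to 50 after the start, and the printed stretch holds it once with 2 CCAAT boxes. The Mvk stretch holds 5 CCAAT boxes, that of Msmo1 3, and those of Mvd and Nsdhl 2 each. Windows were found for 28 of the 34 members and 15 of the 18 enzymes. CCAAT, on either strand, was present in 14 of these 15 enzymes and in 8 of the 13 other members with a window, against 41.1% of all 27025 genes with one. The Sp1 box GGGCGG was present in 14 of the 15 enzymes, 9 of the 13 other members and 38.2% of all genes. TCACNCCAC was present in 1.44% of all genes. The DR4 element of LXR, in its usual degenerate form, matched no member and 0.0962% of all genes. Matches were counted on both strands, overlaps between motifs were kept, and a match describes letters in a window and not a bound site.

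Signals below are log2 of the processed intensity relative to the array's own 75th percentile, so that 0 is that percentile and a step of 1 is a factor of 2. A difference is given for a gene whose probe passed Feature Extraction's well-above-background test on every array in that difference, and a call means a difference of 2-fold or more. Of the 34 members, 32 were measured on all 4 arrays, against 57.7% of all genes. Abcg1 was not well above background on WT 24 h, and Abcg5 was so on WT 24 h alone. The SE given by Feature Extraction's spot error lay between 0.20 and 0.26 for differences of 2 arrays in these 32 genes, and it covers neither culture nor labelling. No signal of 1 member is set against that of another, since probes differ in brightness. Sums of marker signals, given next, are weighted towards the brightest probes for the same reason.

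The 0 h arrays carried abundant mast cell RNA and the 24 h arrays little. All 20 mast cell markers passed the background test at 0 h in both genotypes, while at 24 h it was 16 in WT and 15 in KO. Their summed linear signal, in multiples of the 75th percentile, was 511 in WT and 733 in KO at 0 h, against 1.51 and 17.0 at 24 h. Il1rl1, a cytokine receptor, made up 14.6 of the KO sum at 24 h; without it the sums were 1.30 in WT and 2.45 in KO, and the median marker signals were −4.50 and −4.59. The summed signal of 18 fibroblast markers was 305 and 232 at 0 h and 447 and 395 at 24 h. Thy1, a surface protein of many fibroblasts, stood apart by genotype: it read 3.73 and 4.12 in KO at 0 h and 24 h, −7.02 and −7.41 in WT, the latter not well above background. The probe of Lpar1 itself read −3.20 and −3.15 in WT and −3.43 and −3.61 in KO at these times, and where it lies with respect to the edit is not known here, so it does not check the genotype. Pan-leukocyte markers (15 genes) summed to 90.1 and 174 at 0 h in WT and KO and to 9.55 and 7.14 at 24 h, and 12 macrophage and granulocyte markers to between 4.70 and 5.94 on all arrays. Of the mast cell markers, Ms4a2, Tpsab1 and Cd200r3 were not well above background on either 24 h array. The median difference of the measured fibroblast markers was 0.58 for WT 24 h minus 0 h, 1.06 for KO 24 h minus 0 h, −0.56 for KO minus WT at 0 h and −0.12 at 24 h. Fewer fibroblasts in a sample and less of an RNA per fibroblast cannot be told apart here.

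**Figure D1:**
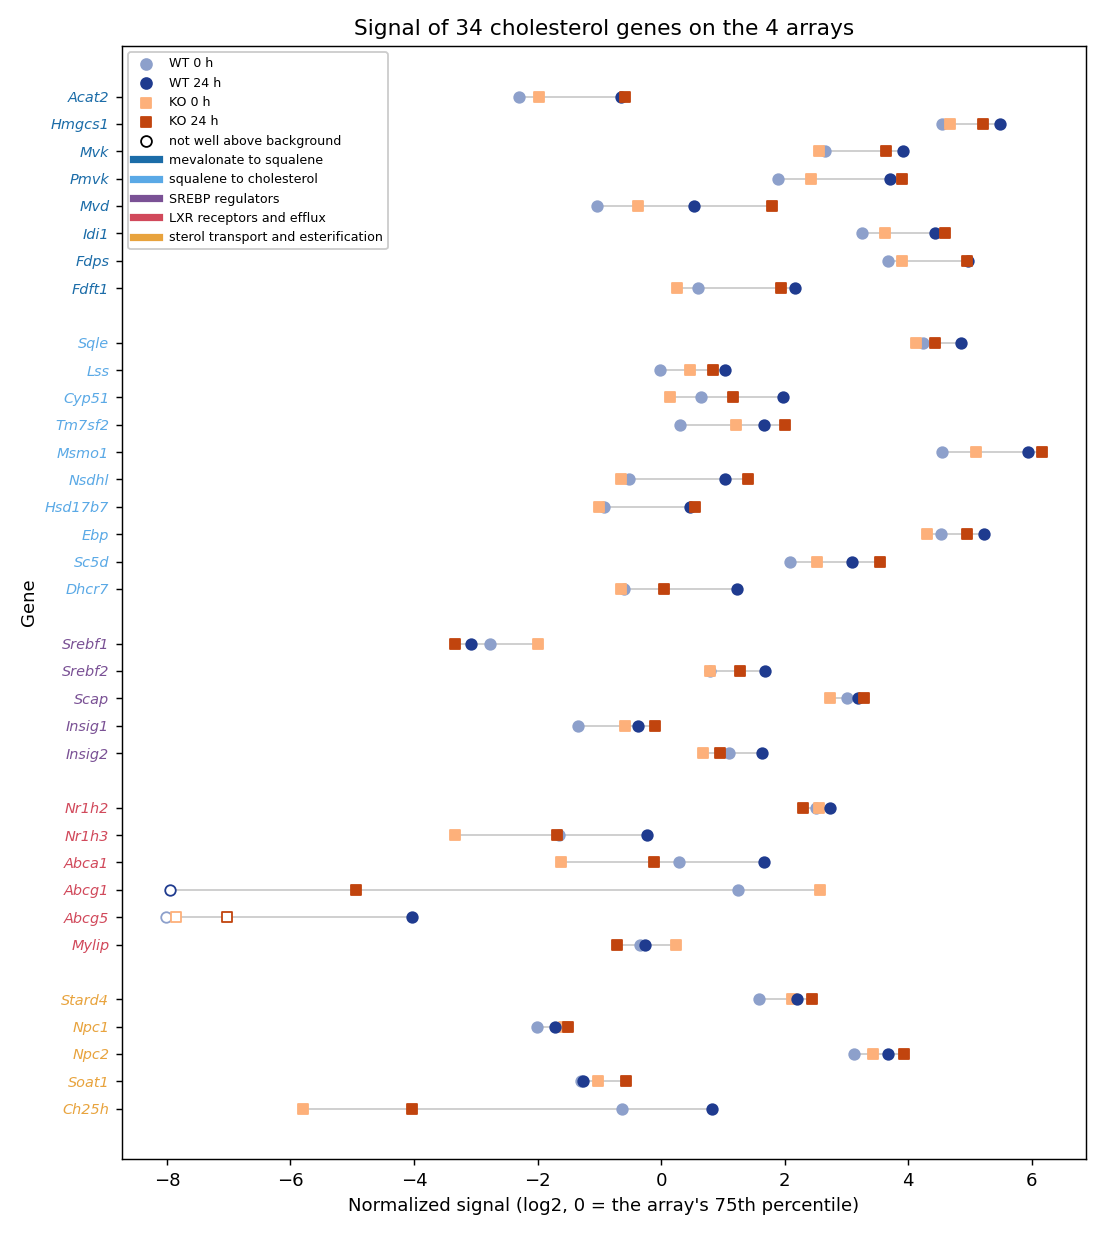
Normalized log2 signal (x axis) of each of the 34 genes (y axis, grouped by role through the colour of the name) on the 4 arrays, WT as circles and KO as squares, 0 h pale and 24 h dark; open symbols were not well above background. For the 18 enzymes the dark symbols lie to the right of the pale ones of the same genotype, while for Nr1h3, Abca1 and Ch25h both squares lie to the left of the circles of the same time.

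All 18 synthesis enzymes read higher on the 24 h array than on the 0 h array in both genotypes. In WT, 15 of the 18 were at least 2-fold higher and 0 lower, with differences from 0.61 to 1.83 and a median of 1.34. In KO, 11 were higher and 0 lower, with differences from 0.31 to 2.17 and a median of 1.04. Over all genes 15.8% of 19197 were called higher in WT and 9.48% of 17861 in KO, around medians of 0.28 and 0.23. Lower calls made up 5.57% and 10.9%. Because 33 of the 34 members are bright, genes with a mean signal of at least −4 give a closer background, and of these 4.35% were higher in WT and 10.4% in KO. All 21 genes of the SREBP2 arm (the enzymes with Insig1, Srebf2 and Stard4) lay above the median of all genes in both differences.

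The early enzymes, from thiolase to squalene synthase, had a median difference between times of 1.43 in WT and 1.24 in KO. Acat2, the cytosolic thiolase that joins acetyl units, read −2.30 in WT and −1.97 in KO at 0 h, then −0.65 and −0.59 at 24 h. Hmgcs1, which makes HMG-CoA, read 4.55, 4.67, 5.49 and 5.22 in the same array order. The 24 h arrays were the brighter for both genes, but the Hmgcs1 differences of 0.94 and 0.55 stayed under 2-fold, and its dim second probe gave 0.28 and −0.25. Pmvk, the kinase that phosphorylates phosphomevalonate, read 1.90, 2.42, 3.70 and 3.90, which is 3.49-fold higher at 24 h in WT and 2.79-fold in KO. Mvd, the decarboxylase that makes isopentenyl diphosphate, read −1.04, −0.37, 0.54 and 1.79. It was higher at 24 h by 2.17 in KO (4.49-fold), the largest increase of the 33 members measured in KO, and by 1.58 in WT. Fdft1, the squalene synthase that commits the pathway to sterol, read 0.60, 0.26, 2.16 and 1.94. It differed between times by 1.57 (WT) and 1.68 (KO), and its second, dim probe gave 0.64 and 0.87.

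Mvk, Idi1 and Fdps, the mevalonate kinase, the isomerase and the farnesyl diphosphate synthase between these steps, had time differences of 1.18 to 1.29 in WT and of 0.97 to 1.09 in KO, where Idi1 alone stayed under 2-fold.

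The late enzymes, which turn squalene into cholesterol, spanned 0.61 to 1.83 in WT and 0.31 to 2.06 in KO. Their medians were 1.34 in WT and 0.90 in KO. Of these 10 enzymes, 8 were called higher in WT and 5 in KO, against 15.8% and 9.48% of all genes. Sqle, the squalene epoxidase that is a control point of the pathway, read 4.24 in WT and 4.13 in KO at 0 h, then 4.85 and 4.44 at 24 h. It had the smallest differences of the enzymes, 0.61 and 0.31. Nsdhl, which removes a methyl carbon from the sterol ring, read −0.52, −0.65, 1.03 and 1.41. It was 2.94-fold higher at 24 h in WT and 4.18-fold in KO. Its second probe gave 1.15 and 0.82, so the order of the genotypes at this gene depends on the probe. Dhcr7, the reductase of the final step in one branch of the pathway, read −0.60, −0.65, 1.23 and 0.04. The 0 h signals were alike and the 24 h signals were not: the difference between times was 1.83 in WT and 0.69 in KO. Its dim second probe gave 0.82 and −0.38, so the KO direction over time depends on the probe. Of the 13 members with several probes, all had their probes in 1 direction over time in WT, and 11 in KO, the exceptions being Dhcr7 and Hmgcs1.

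Among the other late enzymes, the sterol ring modifiers Msmo1 and Hsd17b7 were higher at 24 h by 1.39 and 1.40 in WT and by 1.07 and 1.54 in KO. Cyp51, the lanosterol demethylase, gave 1.33 and 1.01, and Sc5d, the desaturase that acts before Dhcr7, gave 1.01 in each genotype. Lss, the lanosterol synthase, and Tm7sf2, a sterol reductase, passed 2-fold in WT (1.04 and 1.36) and read 0.38 and 0.79 higher in KO. Ebp, the sterol isomerase, stayed under 2-fold in both, at 0.70 and 0.65.

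The 5 regulators of SREBP had median differences of 0.54 in WT and 0.49 in KO. Of these genes 0 were called higher, against 15.8% of all genes in WT and 9.48% in KO, and a count over 5 genes says little. Srebf2, which encodes SREBP2, read 0.79 in WT and 0.80 in KO at 0 h, then 1.69 and 1.28 at 24 h. Insig1, an anchor protein that is itself a target of SREBP, read −1.35, −0.59, −0.37 and −0.10. Both were higher at 24 h by less than 2-fold, 0.90 and 0.98 in WT and 0.49 each in KO. Insig2, the anchor that does not depend on SREBP, differed by 0.54 and 0.28, and Scap, the sterol sensor, by 0.18 and 0.55. Srebf1, whose product drives fatty acid genes and which is itself an LXR target, read −2.76, −1.99, −3.08 and −3.34. Its difference was −0.31 in WT and −1.35 in KO, where it was 2.56-fold lower at 24 h, the other way from the enzymes. In WT it was near level, at −0.05, with quantile normalization and with normexp background correction.

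**Figure D2:**
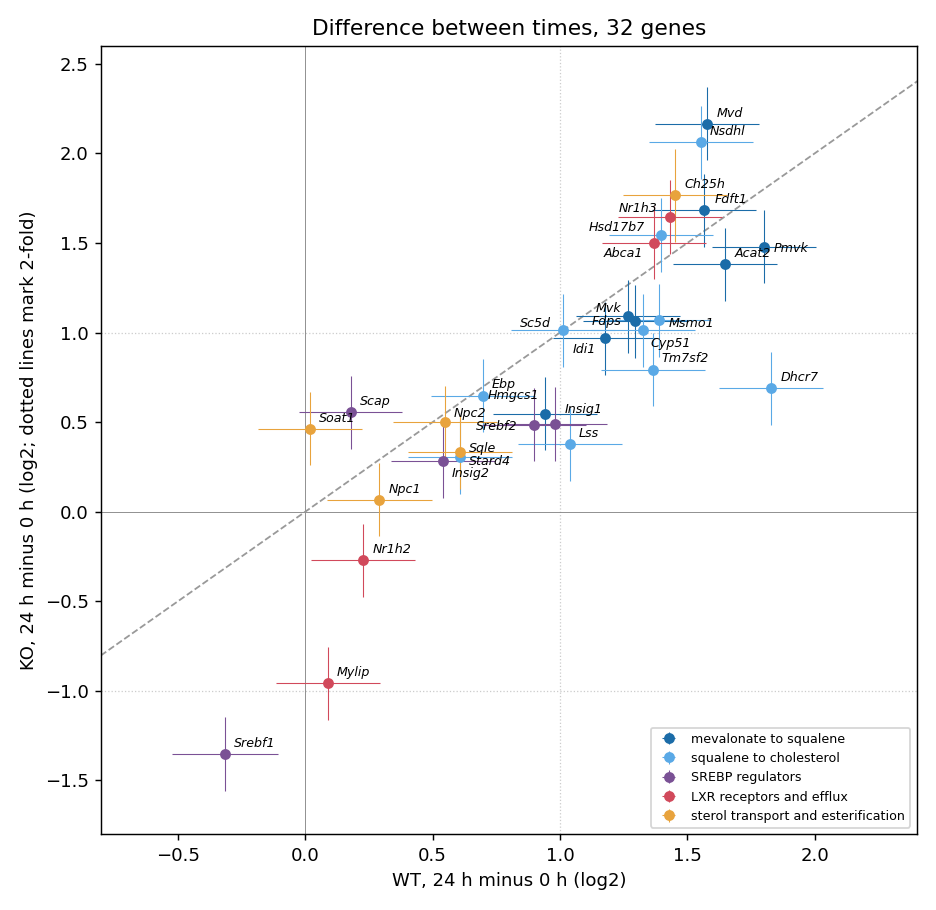
Difference between 24 h and 0 h (log2) in WT (x axis) and KO (y axis) for the 32 genes measured on all 4 arrays, coloured by role; bars are the SE of the spot error, dotted lines mark 2-fold and the dashed line equal differences. The enzymes lie at 0.61 to 1.83 in WT and 0.31 to 2.17 in KO, Dhcr7 stands furthest below the dashed line at 1.83 and 0.69, and Srebf1 and Mylip are lowest in KO at −1.35 and −0.96.

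The LXR arm did not move as a block. Nr1h3, which encodes LXR alpha, read −1.65 in WT and −3.33 in KO at 0 h, then −0.22 and −1.69 at 24 h, which makes time differences of 1.43 for WT and 1.65 for KO. Abca1, the transporter that loads cholesterol onto apolipoprotein, read 0.29, −1.62, 1.66 and −0.12, 2.59-fold higher at 24 h in WT and 2.83-fold in KO. For these genes the 24 h arrays were the brighter in each genotype. Mylip, the ubiquitin ligase that degrades lipoprotein receptors, read −0.34, 0.24, −0.25 and −0.71, a difference of 0.09 in WT and −0.96 in KO. Nr1h2, which encodes LXR beta, stayed within 0.27 of equality between times in both genotypes. The LXR arm is a list of 6 genes taken as LXR targets (Nr1h3, Abca1, Abcg1, Abcg5, Mylip and Srebf1), and their control by LXR in these cells was not tested. Of this arm, 2 were higher and 0 lower of 4 measured in WT, where 15.8% of all genes were higher and 5.57% lower. In KO, 2 were higher and 2 lower of 5 measured, against 9.48% and 10.9% of all genes. The 2 lower genes were Srebf1, not called with normexp (−0.78), and Abcg1, which is described next.

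Abcg1, another cholesterol exporter, followed the mast cell markers. It read 1.25 in WT and 2.58 in KO at 0 h, then −7.95 (not well above background) and −4.93 at 24 h. For WT this puts the 0 h signal at least 170-fold above that at 24 h, and the KO difference between times was −7.51 (SE 0.24). An at-least fold sets the bright signal against the lowest signal that passed the background test on the dim array, or against the dim probe's own signal where that is higher. All 16 mast cell markers measured in WT and all 15 measured in KO were lower at 24 h, with medians of −8.56 and −9.42, and the part of the mast cell RNA in the Abcg1 difference was not tested. Abcg5, a sterol exporter best known from liver and gut, read −4.04 on WT 24 h, at least 9.98-fold above WT 0 h and at least 6.29-fold above KO 24 h, and was not well above background on the other arrays. That is a dim signal from 1 probe on 1 array.

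Ch25h, which makes an oxysterol that holds back SREBP processing and activates LXR, was also higher at 24 h, with differences of 1.45 (WT) and 1.77 (KO). With normexp the KO difference was 0.84, under 2-fold. The remaining transport and storage genes differed by less than 2-fold. Stard4, a carrier of sterol through the cytosol and an SREBP target, differed by 0.61 and 0.33, although its dimmer probe gave 1.11 in WT and a slightly larger difference in KO. Npc1 and Npc2, which pass cholesterol out of lysosomes, differed by 0.29 and 0.55 in WT and by 0.07 and 0.50 in KO. Soat1, which esterifies cholesterol for storage, differed by 0.02 and 0.46.

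The time differences depend on what they are measured against. Set against the fibroblast markers, by subtracting the median difference of that list, the SREBP2 arm had a median of 0.72 in WT and −0.05 in KO. In WT the SREBP2 arm thus lay above the fibroblast markers, and in KO it was level with them. The number of members called higher went from 18 to 4 in WT and from 14 to 1 in KO. The same scale lowered the number over all genes, from 3034 to 937 of 19197 in WT and from 1694 to 92 of 17861 in KO. Acat2, Pmvk, Mvd and Dhcr7 were the 4 WT genes still called, and Mvd the KO gene. How much of the time difference comes from the mast cell RNA on the 0 h arrays was not tested.

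**Figure D3:**
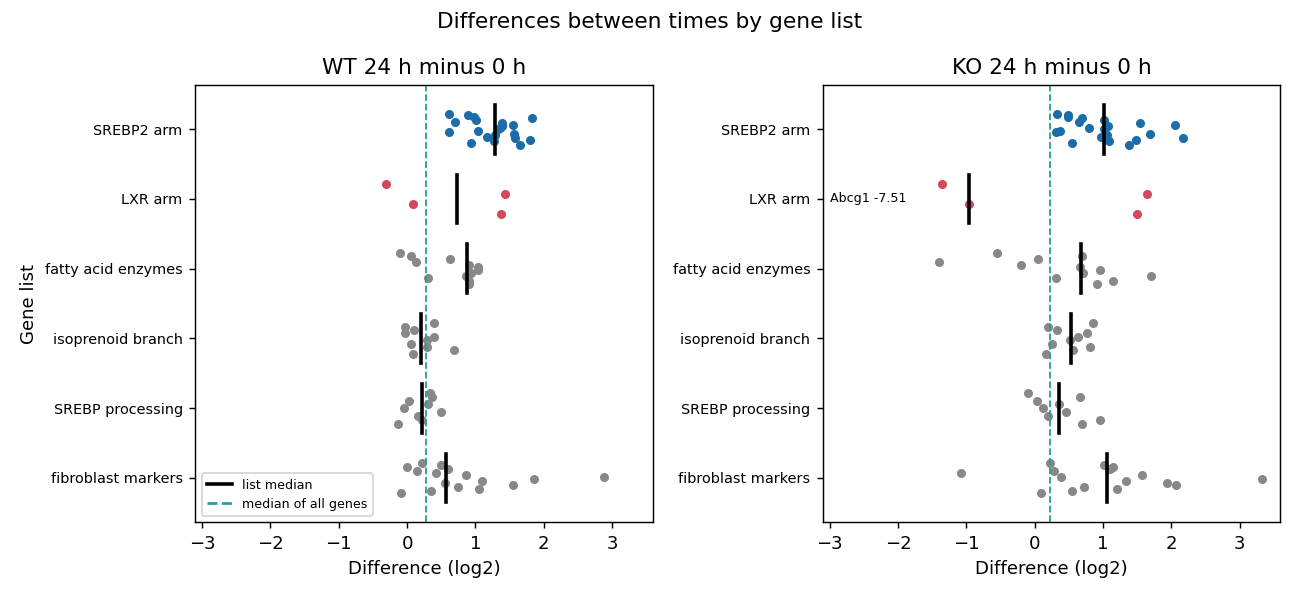
Difference between 24 h and 0 h (x axis, log2) for each measured gene of 6 lists (y axis), in WT at left and KO at right; points are genes, black bars list medians and the dashed line the median of all genes (0.28 and 0.23). Abcg1 in KO (−7.51) lies off the axis and is written in. The SREBP2 arm has medians of 1.29 and 1.01 against 0.58 and 1.06 for the fibroblast markers.

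The wider pathway was described through 5 further lists, 56 genes in all. The 12 fatty acid enzymes driven by SREBP-1 had median differences between times of 0.88 in WT and 0.68 in KO. In WT, 2 of 12 were called higher, Scd2, a desaturase, at 1.04 and Fads1, which desaturates polyunsaturated fat, at 1.03. The share was 15.8% over all genes and 4.35% over genes with a mean signal of at least −4. In KO, where 9.48% of all genes were higher and 10.9% lower, Elovl6, an elongase (1.70), and Acaca, acetyl-CoA carboxylase (1.14), were higher, and Acss2, which activates acetate, was lower (−1.40). The 10 genes of the isoprenoid branch, which draws on the same early intermediates, had medians of 0.20 and 0.54 with 0 called. The 9 genes that cut SREBP or degrade sterol enzymes had 0.21 and 0.36, also with 0 called. Neither of these lists moved with the enzymes in WT.

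Among 16 sterol carriers and lipoprotein receptors, 3 were higher and 1 lower of 15 measured in WT, against 15.8% and 5.57% of all genes. For genes with a mean signal of at least −4 the shares were 4.35% and 6.52%. In KO 4 were higher and 1 lower of 15, against 9.48% and 10.9%. Vldlr, a lipoprotein receptor, was higher at the later time, by 1.27 (WT) and 1.23 (KO), and Nceh1, which hydrolyses cholesterol esters, lower by −1.08 and −1.22. Stard5, a sterol carrier, passed 2-fold in WT (2.15-fold), and Cav1, the caveolar coat protein, in KO (1.43). The 9 partners and further genes listed with LXR had Rxra, the receptor that pairs with LXR, higher in both (1.08 and 1.57), the lipid transfer protein gene Pltp higher in WT (2.15-fold) and Abca7, a lipid transporter, lower in KO (−1.33).

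Between genotypes, on the scale of the 75th percentile, the synthesis enzymes were close to level while Ch25h, Abca1 and Nr1h3 were lower in KO at both times. The enzymes had median KO minus WT differences of 0.17 at 0 h and 0.03 at 24 h. Of the 18, 0 were called at 0 h, and 1 was higher and 1 lower at 24 h. Over all genes, 9.34% were higher and 4.07% lower in KO at 0 h (of 20317), and 5.76% higher and 12.3% lower at 24 h (of 17291). For genes with a mean signal of at least −4 the shares were 5.96% and 4.88% at 0 h, and 6.28% and 6.56% at 24 h. Of all members measured, 1 was higher and 3 lower at 0 h (of 33), and 1 higher and 4 lower at 24 h (of 32). With so few members called, the counts say little, and the values of single genes are given below. At 0 h the level of the enzymes depended on the scale: against the fibroblast markers the SREBP2 arm had a median of 0.78 in favour of KO, and Pmvk, Mvd, Lss, Tm7sf2, Msmo1 and Sc5d were among the genes then called higher in KO. Over all genes the number called higher at 0 h then rose from 1897 to 5772 of 20317.

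Ch25h had the largest genotype difference of the 34. It read −0.63 in WT and −5.80 in KO at 0 h, then 0.82 and −4.03 at 24 h, all well above background. Both KO signals lay far under both WT signals. The KO signal was 35.9-fold lower at 0 h (−5.17, SE 0.25) and 28.9-fold lower at 24 h (−4.85, SE 0.21). It ranked 10th from the lowest of 20317 genes at 0 h and 24th of 17291 at 24 h. With normexp background correction, which lifts dim signals, the differences were −3.30 and −3.83. The only probe of Ch25h lies on chromosome 19 from 34548720 to 34548779 (mm9), and a second probe to check it was not on the array.

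Abca1 and Nr1h3 were lower in KO by similar amounts at both times. Abca1 (probe on chromosome 4 from 53043944 to 53044003, mm9) differed by −1.91 at 0 h and −1.78 at 24 h, 3.77-fold and 3.44-fold lower. Nr1h3 (chromosome 2 from 91024250 to 91024309, mm9) differed by −1.68 and −1.47, 3.21-fold and 2.76-fold lower, and its second probe by −1.33 and −1.37. These genes therefore kept the distance between genotypes while both genotypes read higher at 24 h. Set against the median of the fibroblast markers the 0 h differences were −1.36 for Abca1 and −1.12 for Nr1h3, still past 2-fold. Those markers did not shift by a common amount at 0 h: of 17 measured, 15 read lower in KO, 7 of them by at least 2-fold, and 2 were at least 2-fold higher. The shares over all genes were 4.07% lower and 9.34% higher. The markers spanned −3.07 to 10.7, so drops of this size also occurred among them. The other receptor gene, Nr1h2, differed by 0.06 and −0.44. Mylip was 0.59 higher at 0 h and −0.46 lower at 24 h, and Srebf1 0.77 higher and −0.27 lower, so the genes of the LXR arm did not share a direction at 0 h. At 24 h the 4 measured genes of the arm all read lower in KO, with a median of −0.96. Of these, 2 were called, against 12.3% of all genes. Among the 2 not measured, Abcg5 was at least 6.29-fold lower in KO and Abcg1 at least 2.35-fold higher, both from dim signals.

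Abcg1 was 1.33 higher on KO 0 h than on WT 0 h, the only member called higher at that time. Of 20 mast cell markers 8 were at least 2-fold higher on KO 0 h and 0 lower, with a median of 0.87, against 9.34% and 4.07% of all genes. The part of mast cell RNA in the Abcg1 value was not tested. At 24 h Abcg1 was at least 2.35-fold higher in KO, from a dim signal. On the 24 h arrays 12 of the 14 mast cell markers measured there read higher in KO, with a median of 0.49.

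**Figure D4:**
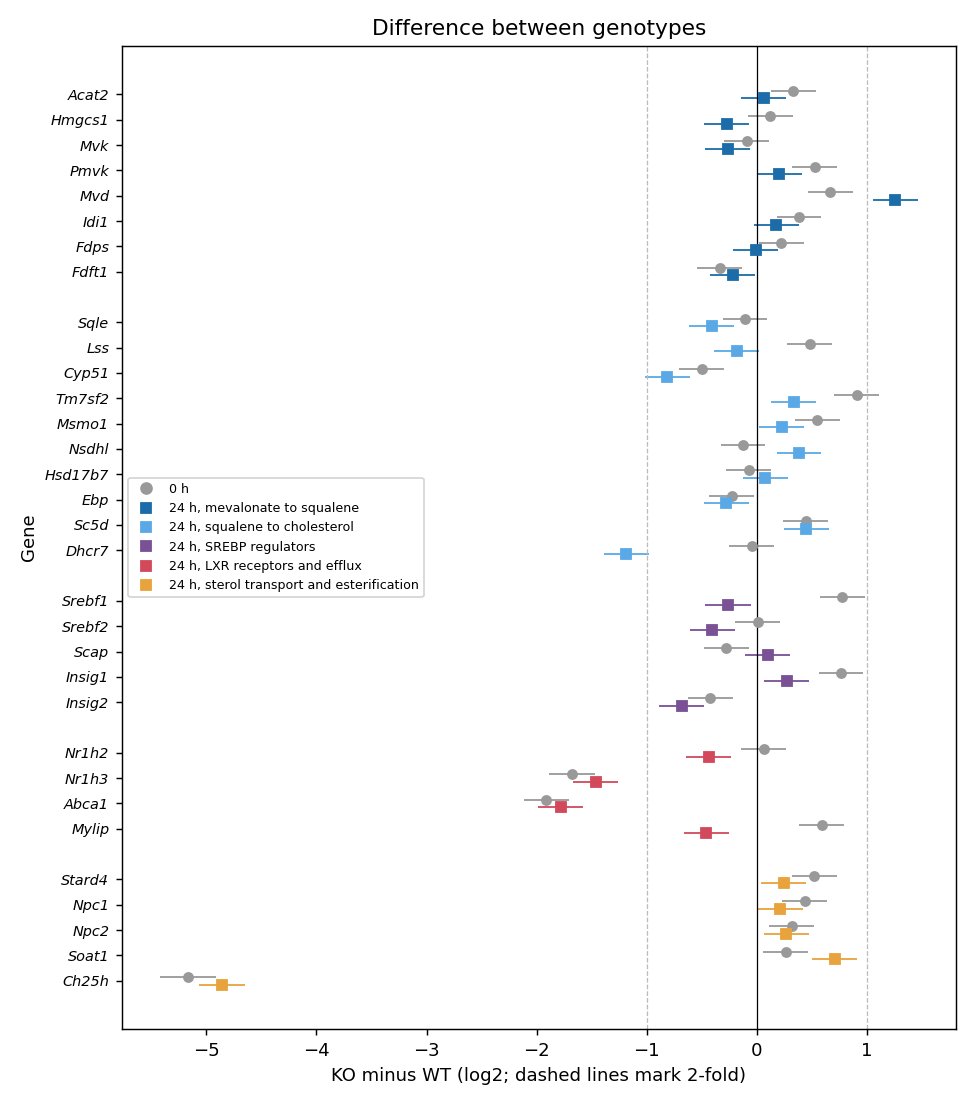
KO minus WT (x axis, log2) at 0 h (grey circles) and 24 h (squares coloured by role) for the 32 genes measured on all 4 arrays (y axis); bars are the SE of the spot error and dashed lines mark 2-fold. Ch25h lies near −5 at both times (−5.17 and −4.85), Abca1 and Nr1h3 between −1.91 and −1.47, and the enzymes between −0.50 and 0.90 at 0 h.

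Among the enzymes, Mvd and Dhcr7 were the ones called at 24 h, in opposite directions. For Mvd, KO exceeded WT by 1.25 at 24 h and by 0.67 at 0 h. Dhcr7 was lower by −1.19 at 24 h and −0.05 at 0 h, and its dim second probe gave −1.20 and 0.00. The 2 genes act at early and final steps of the same pathway, and the arrays gave no common shift of the steps between them: Cyp51 differed by −0.50 and −0.81, Tm7sf2 by 0.90 and 0.33 and Fdps by 0.22 and −0.01. Of the transport genes, Soat1 was 0.71 higher in KO at 24 h and Insig2, among the regulators, −0.68 lower, both under 2-fold.

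Some genes outside the 34 passed 2-fold between genotypes. Cyp7b1, which clears oxysterols by hydroxylation, read −3.28 in WT and −4.50 in KO at 0 h, then −0.56 and −2.57 at 24 h. Its genotype differences were −1.22 at 0 h and −2.02 at 24 h, and the difference between times was 2.72 (WT) and 1.93 (KO). Pltp, a phospholipid transfer protein gene and LXR target, read −0.91, −3.35, 0.19 and −2.51, lower in KO by −2.44 and −2.70. Both KO signals of Pltp lay below both WT signals, as for Ch25h. Gramd1c, a sterol transfer protein of membrane contact sites, had KO minus WT differences of 1.97 at 24 h and 0.99 at 0 h, and Smpdl3a, a phosphodiesterase and LXR target in human macrophages, was 1.84 higher in KO at 0 h. Cav1 was lower by −1.02 at 0 h and 0.52 higher at 24 h, Acss2 1.05 higher at 0 h and −0.47 lower at 24 h, and Fads2, a desaturase, −1.05 lower at 24 h. Over the 5 lists, 2 genes were higher and 3 lower of 55 measured at 0 h, and 1 higher and 3 lower of 54 at 24 h, against 9.34% and 4.07% of all genes at 0 h and 5.76% and 12.3% at 24 h.

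The difference between times was compared between the genotypes gene by gene, as the KO change minus the WT change. Of the 32 members measured on all arrays, 30 went the same way in WT and KO and 2, Mylip and Nr1h2, did not. None was at least 2-fold above and 3 were at least 2-fold below, namely Dhcr7 (−1.14), Mylip (−1.05) and Srebf1 (−1.04), with an SE of 0.29 each. Over 17116 genes 4.72% lay above and 13.3% below. For genes with a mean signal of at least −4 the shares were 5.06% above and 6.05% below. With normexp Dhcr7 (−0.89) and Srebf1 (−0.73) were no longer called, nor was Srebf1 in KO over time (−0.78). The enzymes had a median of −0.25, with 13 of 18 below 0, while the median of all genes was 0.03. Ch25h, Nr1h3 and Abca1 differed by 0.31, 0.22 and 0.13, within about 1 SE of equal change (0.33, 0.29 and 0.29), but Ch25h turned to −0.53 with normexp. The largest positive values belonged to Mvd (0.59) and Nsdhl (0.51), under 2-fold, and the second Nsdhl probe gave −0.33. This quantity is made from all 4 arrays, so it shares arrays with each difference above and is no separate evidence for any of them. In the further lists, Acss2 (−1.52), Abca7 (−1.23), Fads2 (−1.09) and Osbpl9, an oxysterol-binding protein relative (−1.07), lay below, and Cav1 (1.54) above.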

How the data were processed

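RNA of 4 pools was labelled with Cy3 and hybridised to 1-colour Agilent arrays. Per the file headers the deposited values are spot intensity from Agilent Feature Extraction 12.1.1.1, and probe positions are on mm9. The labels give 200 ng of RNA per labelling. The authors' deposited value table is a ratio: the processed signal over each array's 75th percentile, with signal over table value constant within an array (1197.47 and 926.641 for WT at 0 h and 24 h, 1002.93 and 749.899 for KO). It is linear, not centred and in the direction of signal. Its column medians were 0.0442 and 0.0452 for WT, 0.0483 and 0.0334 for KO.

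Control and outlier spots (93 to 122 an array) were left out, processed signal was taken to log2, each array's 75th percentile over 43020 spots was subtracted, and spots of a probe were averaged. Spots well above background made up 62.1% to 72.7% per array, no spot was saturated, and precision is limited by having 1 array a group. Of 39429 probes, 29110 were named by accession in the RefSeq table of GRCm38.p6 and 10319 kept the file's name. Calls are at 2-fold. Named genes are the 34 members and, of each further list, those called, at most 3 at each end. Members and lists were chosen with earlier results of these data known. The calling steps were tested on simulated data. Alternatives were run in Python 3.11.15 and, for normexp (offset 50) and quantile normalization, limma 3.58.1.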

Additional observations from a re-analysis of the deposited data

How the results depend on the processing

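The results were recomputed under 9 alternative settings. Of 180 counts and list medians 148 stayed close to the reported value, 31 moved and 1 reversed; of 1456 values of single genes 1250 stayed close, 204 moved and 2 called values reversed. The authors' table and the mean over probes moved none of the counts or medians. Quantile normalization gave SREBP2 arm medians between times of 1.09 in WT and 0.72 in KO, with 9 members higher in KO. Normexp gave 1.08 and 0.80, with 8 higher and 1 lower in KO and 1 lower in the difference of changes. Without the background filter 1 member was lower in WT, 2 were higher in KO at 24 h and 1 in the difference of changes, and the LXR arm medians were −0.0721 for KO over time and 0.38 between genotypes at 0 h. The stricter filter gave 1 lower in KO over time, 0 higher in KO at 0 h, and LXR arm medians of 0.27 and −0.55. The second brightest probes gave LXR arm medians over time of 0.96 in WT and −0.61 in KO. Fibroblast marker scaling gave 4 higher in WT over time, 1 higher and 4 lower in KO, and 11 higher in KO at 0 h. Over all genes it gave 937 higher of 19197 in WT, 92 higher and 7274 lower of 17861 in KO, and 5772 higher of 20317 at 0 h. Its SREBP2 arm medians were 0.72 in WT, −0.0496 in KO and 0.78 between genotypes at 0 h, and its LXR arm medians 0.15, −2.02 and 1.14. With it 17 of 33 KO time differences changed sign, to between −0.995 and −0.0494, 9 of them enzymes; Cyp51 (−0.0496) and Sc5d (−0.0494) were those called before. In WT 7 of 32 changed sign, none of them enzymes or called, and between genotypes 10 of 33 at 0 h and 1 of 32 at 24 h, as did 5 of 32 differences of changes. A 1.5-fold limit gave 6 higher in KO at 0 h, 2 at 24 h and 1 in the difference of changes. The cause of these moves was not tested.

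Over these settings, KO minus WT lay between −5.41 and −3.30 for Ch25h at 0 h and between −4.85 and −3.83 at 24 h. Abca1 lay between −2.04 and −1.36, then −1.78 and −1.64, and Nr1h3 between −1.76 and −1.12, then −1.47 and −1.25. At 24 h Mvd lay between 1.11 and 1.38, and Dhcr7 missed 2-fold with normexp (−0.98). Of all genes called over time in WT, 73.9% were higher (3034 against 1070 lower), but 38.8% with normexp, 43.7% with the stricter filter and 28.1% on the fibroblast scale. In KO the share was 46.5%, but 60.8% after quantile normalization, 51.7% with the stricter filter, 26.8% with no filter and 1.25% on the fibroblast scale. Between genotypes it was 69.6% at 0 h, but 58.3% after quantile normalization, 59.3% with normexp, 49.5% with the stricter filter (710 higher, 724 lower) and 94.4% on the fibroblast scale. At 24 h it was 31.9%, but 46.0% and 50.3% with quantile normalization and normexp, 46.5% with the stricter filter and 17.9% with no filter. For the difference of changes it was 26.2%, but 45.6%, 41.5% and 12.5% with quantile normalization, normexp and the fibroblast scale. Fibroblast scaling put the median of all genes at −0.30 and −0.84 over time in WT and KO and at 0.61 between genotypes at 0 h. No paired analysis was possible because each group has 1 array and the labels give no replicate numbers. Signals near background have only bounds.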
